A study of Mus musculus with 2 samples.

Results

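The 10 genes described here carry out antigen presentation by the major histocompatibility complex (MHC), the system by which cells display peptides to T cells. They are Cd74, H2-Aa, H2-Ab1, H2-Eb1, H2-DMa, H2-DMb1, H2-K1, H2-D1, B2m and Tap1. They were taken by symbol from the 43346 mouse gene identifiers in the gene tables, and all 10 were found in both. The tissue was adrenal gland of adult C57BL/6J mice, 8 weeks old, and the labels describe littermates of mixed sex. Poly(A) RNA longer than 200 nt was sequenced in 2 libraries, labelled biological replicates 1 and 2, with 48059863 and 53294872 expected counts (the estimated number of read pairs). They were stranded and paired, with reads of 76 nt and added spike-in RNAs. Where 2 values are given for a gene, the first is replicate 1 and the second replicate 2. Both libraries form 1 group of the same strain, with no treatment or altered allele named, so the design has no comparison between conditions. The labels give both libraries the same donor entry and do not say how many animals went into each. Y-linked transcripts were found in replicate 1 only, as given further on, so the libraries differed in sex composition. How much of the spread between them is technical is not known.

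Class I molecules pair an MHC-encoded heavy chain with beta-2 microglobulin and display peptides made inside the cell to CD8 T cells. Nearly all nucleated cells carry them. Class II molecules are pairs of an alpha and a beta chain that display peptides from engulfed protein to CD4 T cells, and they are known mainly from macrophages, dendritic cells and B cells. Interferon gamma raises the transcription of both classes, and class II genes also require the coactivator Ciita.

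Promoters of class I and class II genes are known to share a module in which an X box lies a fixed distance before a Y box, an inverted CCAAT. The stretches below are shown because this module is what joins genes of both classes. They come from the RefSeq promoter table (GRCm38.p6), which held windows of 250 bases before to 50 after the start for 8 of the 10 genes. Cd74 and H2-Ab1 had no window. Capitals mark TGANG, whose letters vary at the fourth base, and the Y box letters ATTGG, which start 24 to 26 bases later. Each is written 5′ to 3′ on the gene's own strand.
H2-Aa: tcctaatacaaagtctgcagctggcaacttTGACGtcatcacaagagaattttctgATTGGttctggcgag
H2-Eb1: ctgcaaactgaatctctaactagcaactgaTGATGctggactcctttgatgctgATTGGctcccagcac
H2-DMb1: TGATGctaggctgattcactcagtgATTGG
H2-K1: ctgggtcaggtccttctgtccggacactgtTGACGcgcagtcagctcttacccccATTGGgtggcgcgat
H2-D1: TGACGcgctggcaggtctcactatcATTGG
B2m: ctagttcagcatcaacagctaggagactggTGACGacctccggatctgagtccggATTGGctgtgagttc

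The stretch of H2-Aa lies at chr17:34287857-34287927 on the minus strand and that of H2-Eb1 at chr17:34305754-34305822 on the plus strand. That of H2-K1 lies at chr17:34000349-34000418 on the minus strand, and that of B2m at chr2:122147579-122147648 on the plus strand. Shorter stretches are shown for H2-DMb1 (chr17:34153105-34153134, plus strand) and H2-D1 (chr17:35262993-35263022, plus strand), where GENCODE places an exon over the RefSeq window. The spaced pair was present in 6 of the 8 genes and in 0.947% of the 32851 promoter windows of the same length. The class I genes H2-K1 and H2-D1, the light chain gene B2m and the class II gene H2-Aa all have TGACG in the first position. H2-Eb1 and H2-DMb1 have TGATG. The ATTGG lay 16 bases before the start in H2-K1 (30 before its other annotated start), 48 in H2-Aa, 53 in B2m, 59 in H2-Eb1, 61 in H2-DMb1 and 76 in H2-D1. The pair was not found in the windows of H2-DMa and Tap1, which says only that these letters are not there. This spaced pair was set after the windows had been read.

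Searched singly on both strands, CCAAT was found for all 8 genes and in 37.4% of all windows, and for H2-DMa only in the window of its second start. TGACG was found for 5 of the 8, against 20.8% of all windows. The core of the interferon-stimulated response element, GAAA, any 2 bases and GAAA, was found in B2m alone, against 3.44% of all windows. The NF-kappaB palindrome, GGG, any 4 bases and CCC, was found in H2-Aa, H2-D1 and H2-K1, against 11.9%. A window without a match lacks these exact letters, which does not show that the element is absent. The following stretches show one of each. Capitals mark the match in B2m and, in H2-K1, the whole palindrome around it. They lie in B2m at chr2:122147533-122147572 (plus strand) and in H2-K1 at chr17:34000433-34000473 (minus strand).
B2m: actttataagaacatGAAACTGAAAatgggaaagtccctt
H2-K1: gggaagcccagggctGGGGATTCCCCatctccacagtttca

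All 10 genes were expressed in both libraries, with means from 17.1 to 1071 TPM (a transcript level scaled for length and for the size of the library). Together they held 0.351% ± 0.0104 (SD, n = 2) of TPM outside spike-ins, 0.358% in replicate 1 and 0.344% in replicate 2. In whole tissue a lower level cannot be told apart from fewer cells that express a gene. H2-K1 stood clearly highest. H2-DMa, a subunit of the class II peptide editor, was lowest.

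**Figure D1:**
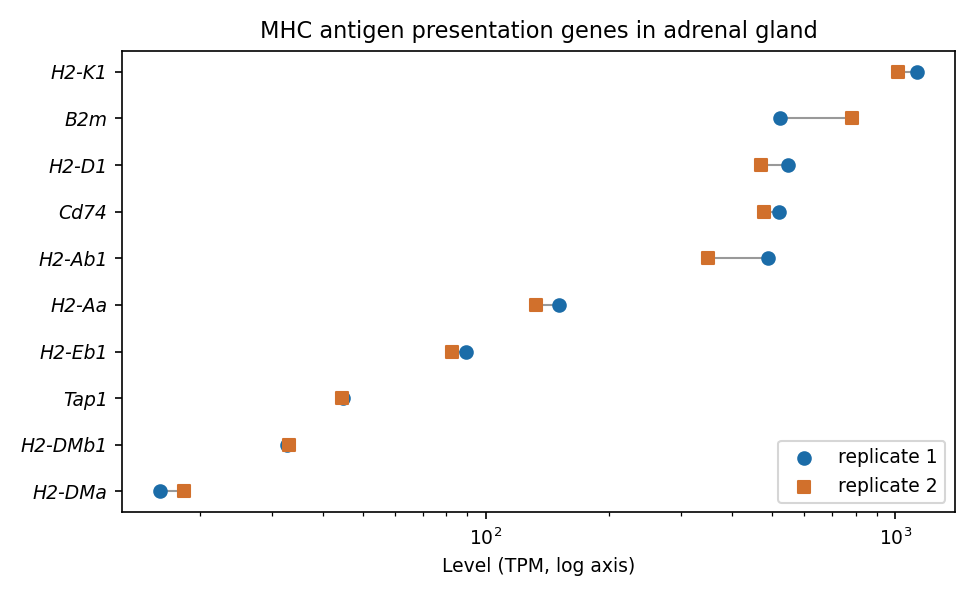
Level of each gene in TPM (log axis), a circle for replicate 1 and a square for replicate 2, joined by a line. H2-K1 is highest at 1130 and 1013 TPM and H2-DMa lowest at 15.95 and 18.25 TPM; B2m, H2-D1, Cd74 and H2-Ab1 overlap with their neighbours in the order.

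H2-K1, a classical class I heavy chain (ENSMUSG00000061232.11, mm10 chromosome 17, 33996017 to 34000347, minus strand), was at 1130 and 1013 TPM, a mean of 1071 ± 82.5 (SD, n = 2). It ranked 96th and 114th among protein-coding genes. H2-D1, the other classical heavy chain gene named here (ENSMUSG00000073411.7, chromosome 17, 35262730 to 35267499, plus strand), was at 546 and 470 TPM, a mean of 508 ± 53.8. H2-K1 exceeded H2-D1 by 2.07 times in replicate 1 and 2.16 times in replicate 2, so their balance moved little.

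B2m, the light chain shared by class I molecules (ENSMUSG00000060802.8, chromosome 2, 122147686 to 122153083, plus strand), was at 524 and 784 TPM, a mean of 654 ± 184. It was the member with the widest spread. The 2 heavy chains were higher in replicate 1 while their light chain was higher in replicate 2. B2m amounted to 0.313 of H2-K1 plus H2-D1 in replicate 1 and 0.529 in replicate 2. Its transcript was therefore below the sum of these heavy chains in both libraries. Tap1, one subunit of the transporter that brings peptides into the endoplasmic reticulum (ENSMUSG00000037321.13, chromosome 17, 34187553 to 34197225, plus strand), was at 44.6 and 44.5 TPM, a mean of 44.6 ± 0.0636.

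Among the class II genes, Cd74 encodes the invariant chain, which fills the groove of newly made molecules (ENSMUSG00000024610.10, chromosome 18, 60803848 to 60812652, plus strand). Cd74 was at 519 and 478 TPM, a mean of 498.5 ± 29.3 (SD, n = 2). H2-Ab1, the beta chain of the A molecule (ENSMUSG00000073421.5, chromosome 17, 34257689 to 34269419, plus strand), was at 490 and 349 TPM, a mean of 420 ± 99.4. H2-Aa, its alpha chain partner (ENSMUSG00000036594.10, chromosome 17, 34282744 to 34287823, minus strand), was at 151 and 132 TPM, a mean of 141 ± 13.0. The partners of 1 dimer were thus not at equal transcript levels: H2-Ab1 exceeded H2-Aa by 3.25 times in replicate 1 and 2.64 times in replicate 2. Cd74 was 1.06 and 1.37 times H2-Ab1.

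H2-Eb1, the beta chain of the E molecule (ENSMUSG00000060586.10, chromosome 17, 34305867 to 34316674, plus strand), was at 89.5 and 82.7 TPM, a mean of 86.05 ± 4.81. It stood at 0.594 and 0.626 of H2-Aa. C57BL/6 mice are known to carry a deletion in the gene of its alpha chain partner and to make no E molecule at the cell surface. That gene, H2-Ea-ps, had 0 counts in both libraries. A count of 0 allows up to 3 counts in either library, for counting error only.

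H2-DMa and H2-DMb1 encode the chains of the molecule that exchanges the invariant chain fragment for peptide. H2-DMa (ENSMUSG00000037649.9, chromosome 17, 34119541 to 34139101, plus strand) was at 15.95 and 18.25 TPM, a mean of 17.1 ± 1.63. H2-DMb1 (ENSMUSG00000079547.3, chromosome 17, 34153072 to 34160230, plus strand) was at 32.67 and 33.04 TPM, a mean of 32.9 ± 0.262. H2-DMa was 0.488 and 0.552 of H2-DMb1, but most of the TPM of H2-DMb1 came from a transcript annotated without a coding sequence, described further on.

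In order of mean level the genes ran H2-K1, B2m, H2-D1, Cd74, H2-Ab1, H2-Aa, H2-Eb1, Tap1, H2-DMb1 and H2-DMa. The library values of B2m and H2-D1 overlapped, as did those of H2-D1 and Cd74 and those of Cd74 and H2-Ab1, so the order among these is not settled beyond the spread. The other 6 neighbouring pairs did not overlap. For scale, the protein-coding genes next to Cd74 in mean level were Lonp1 at 499 and the ribosomal protein gene Rpl13a at 494 TPM. Those next to Tap1 were Tmx4 and Mapkap1.

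The counts of 6 of the 10 genes were fractional in at least 1 library, as the authors' estimate gives when it divides reads between genes. Cd74, H2-Aa, H2-DMa and Tap1 had whole counts in both. The share of 76-base words of the leading transcript, the length of a read, that also occur in GENCODE M21 transcripts of other genes was 34.4% for H2-DMb1, all of them in its neighbour H2-DMb2. It was 6.81% for H2-D1, mostly shared with H2-Q1, and 1.42% for H2-K1. It was 0% for the other 7 genes, of which B2m, H2-Ab1 and H2-Eb1 had a fractional count in replicate 1. The posterior SD of the count, as deposited, was at most 3.61 counts for any member in either library. For H2-DMb1 it was 3.18 and 2.19 on counts of 717 and 747. The levels of H2-DMb1, H2-D1 and H2-K1 therefore carry some uncertainty from shared reads, small beside the spread between libraries for the last 2. For H2-DMb1 that spread was 0.262 TPM, narrower than the deposited interval of 29.8 to 35.2 TPM in replicate 1.

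A set of 9 lists of cell type markers was read in the same libraries, to place these levels among the cells of the gland. Cortex markers summed to 22545 and 30411 TPM, with all 6 at 1 TPM or more, and medulla markers to 3901 and 3599 TPM, so the labelled tissue carried its defining transcripts. The macrophage list summed to 557 and 520 TPM. Of its 12 genes 9 reached 1 TPM in both libraries, led by the complement gene C1qc at 205 and 194 TPM, while Aif1, Cd163 and Mrc1 stayed below and none was at 0. The pan-leukocyte list had 5 of 5 genes at 1 TPM or more, led by Laptm5 at 72.5 and 78.8 TPM, with Ptprc at 6.27 and 4.62 TPM.

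Dendritic cell markers summed to 13.4 and 12.2 TPM, with 3 of 8 at 1 TPM or more. These were Zbtb46 (6.05 and 6.02 TPM), Batf3 (4.95 and 3.45 TPM) and Itgax (1.45 and 1.35 TPM). Flt3, Xcr1, Clec9a and Cd209a were at 0.23 TPM or less. B cell markers summed to 68.0 and 68.5 TPM, nearly all of it the immunoglobulin gene Ighm at 63.8 and 62.6 TPM. Cd79a stood at 2.21 and 3.05 TPM and Ms4a1 at 0.0100 and 0.0300 TPM. None of the 6 T cell genes reached 1 TPM in both libraries. Cd4 was highest at 53 and 65 counts and Cd3e had 18 and 16, while Cd3d, Cd3g, Cd8a and Cd8b1 had at most 14. Endothelial markers, led by Plvap, summed to 816 and 712 TPM. Adipocyte markers, led by Cfd at 9884 and 3984 TPM, summed to 15410 and 6896 TPM, with all 7 at 1 TPM or more, so the samples also held transcripts of fat. Which of these cells the class I and class II transcripts came from was not tested.

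**Figure D2:**
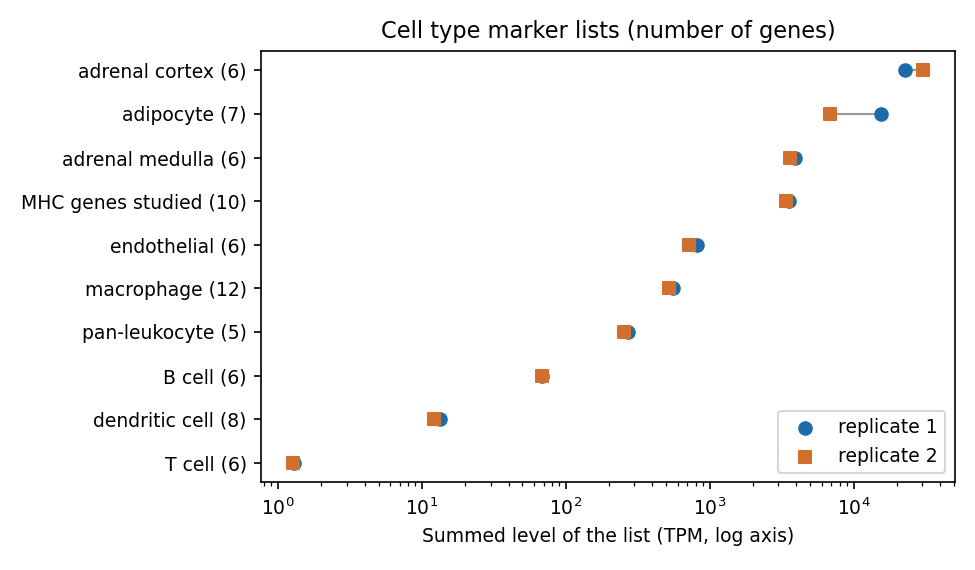
Summed level in TPM (log axis) of each marker list and of the MHC genes studied, a circle for replicate 1 and a square for replicate 2, with the number of genes in brackets. The MHC genes sum to 3542 and 3405 TPM and the macrophage markers to 557 and 520; the adipocyte list differs most, at 15410 and 6896 TPM.

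Further genes of the class II pathway were read from a list of 14, of which 13 were matched. Genes of the endosomal enzymes that prepare antigen ranged widely in level. Ctsb was at 594 and 957 TPM, Ifi30, the lysosomal thiol reductase, at 142 and 179 TPM, and Lgmn at 112 and 132 TPM. Ctss, the cathepsin known for trimming the invariant chain in antigen-presenting cells, was lower at 5.51 and 7.97 TPM, and Ctsl, another cathepsin gene, was at 16.7 and 18.6 TPM, near H2-DMa. Ctsb and Lgmn act in lysosomes of many cell types, so their level is not a measure of presentation alone. The DO genes, which restrain DM, were at 1.89 and 1.91 TPM for H2-Oa and 0.440 and 0.370 TPM for H2-Ob. H2-DMb2 was at 2.47 and 1.35 TPM and shares sequence with H2-DMb1, which exceeded it by 13.2 and 24.5 times. Most of that TPM came from the H2-DMb1 transcript annotated without a coding sequence. The coding transcript of H2-DMb1, at 6.17 and 4.77 TPM, was much nearer H2-DMb2. H2-Eb2 had 0 and 4 counts.

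All 16 genes of class I peptide supply and loading reached 1 TPM in both libraries. Tap2, the partner of Tap1, was at 61.3 and 63.6 TPM, so that Tap1 was 0.728 and 0.700 of Tap2. Tapbp, which holds the transporter to empty class I molecules, was at 244 and 223 TPM, and Calr, a chaperone of the same complex, at 88.2 and 90.2 TPM. The aminopeptidase Erap1 was at 2.27 and 2.84 TPM. Pdia3 was listed at 2054 and 1632 TPM, but its 17715 and 16737 counts are near those of Tapbp. Its value rests on a gene length of 444 and 463 nt in the tables, against 2337 and 2501 nt for Tapbp.

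The immunoproteasome swaps 3 catalytic subunits of the standard proteasome for interferon-induced ones. Psmb8 was at 68.6 and 84.2 TPM and its standard counterpart Psmb5 at 222 and 264 TPM, a ratio of 0.309 and 0.319. Psmb9 was 0.209 and 0.141 of Psmb6. Psmb10, at 83.4 and 88.7 TPM, was instead above its counterpart Psmb7, by 1.88 and 1.76 times. These pairs were chosen after the values had been seen.

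Of 33 class I-like and non-classical genes listed, 28 were matched and 16 reached 1 TPM in both libraries. Cd1d1, which presents lipids, was at 168 and 250 TPM, H2-Q4 at 184 and 201 TPM, and the IgG receptor gene Fcgrt at 170 TPM in both. H2-T23, which encodes the ligand of an inhibitory receptor on natural killer cells, was at 164 and 156 TPM. H2-Q7 was at 62.7 and 59.2 TPM and H2-Q6 at 23.1 and 24.5 TPM, with fractional counts, so that the division between them is uncertain. H2-T3, H2-M5, H2-M9 and H2-M10.1 had 0 counts in both libraries. H2-Q4 was the highest of the list in replicate 1 and Cd1d1 in replicate 2, and both were below H2-K1 in each library.

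Apart from Cd74 on chromosome 18, the class II members and Tap1 begin within 309.9 kb of H2-K1 along chromosome 17. H2-D1 begins 1267 kb away from H2-K1, before the Q genes. Among the listed genes, H2-Ab1 at 420 TPM lay between H2-Ob at 0.405 TPM and H2-Aa at 141 TPM. Tap1 and Psmb9 start head to head with 225 bases between their RefSeq starts, and stood at similar levels of 44.6 and 42.7 TPM. Tap1 was 0.933 of Psmb9 in replicate 1 and 1.19 times Psmb9 in replicate 2, so the order of that pair changed between libraries.

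**Figure D3:**
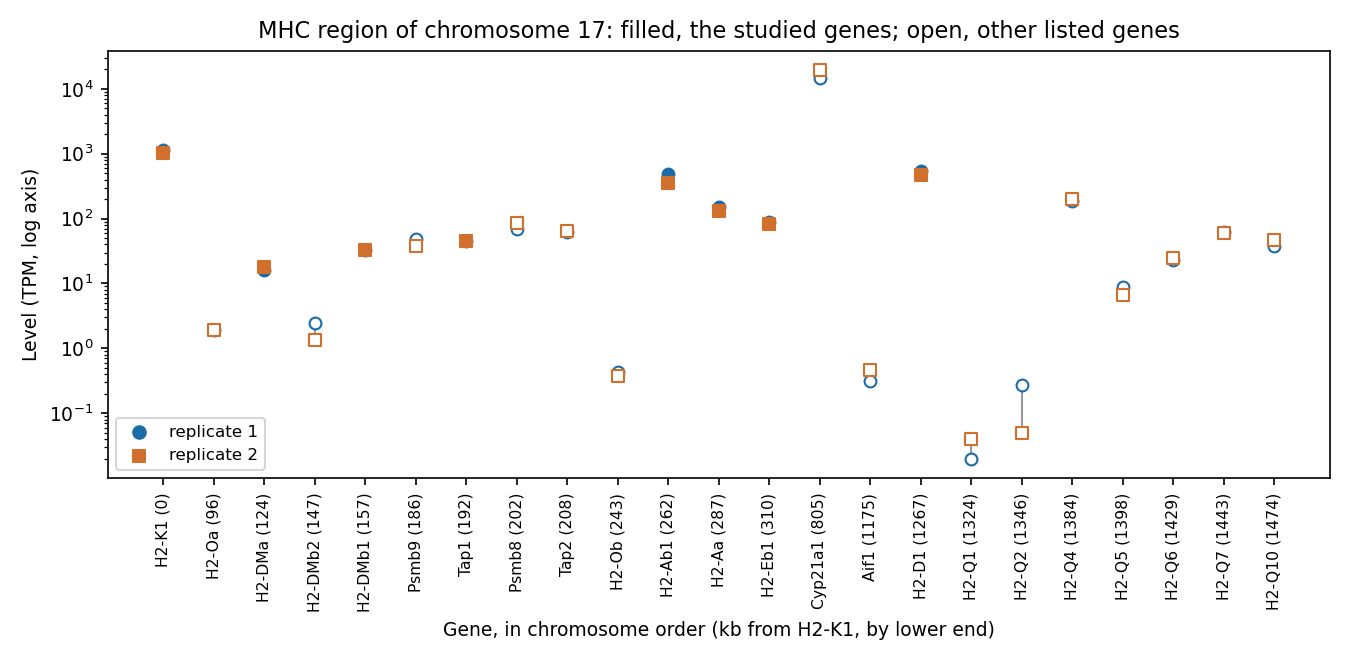
Level in TPM (log axis) of listed genes in the MHC region, in chromosome order, with the distance from H2-K1 in kb after each name; filled symbols are the genes studied, open symbols others, circles replicate 1 and squares replicate 2. Genes at 0 in a library are left out; H2-Ab1 at 490 and 349 TPM lies next to H2-Ob at 0.440 and 0.370 TPM.

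The transcriptional regulators of these genes were all measured, 15 of 15 at 1 TPM or more in both libraries. Ciita, the class II coactivator, was low at 2.64 and 2.14 TPM, and Nlrc5, its class I counterpart, was at 6.33 and 8.00 TPM. The X box proteins Rfx5, Rfxap and Rfxank were between 7.71 and 15.1 TPM. Of the Y box complex, Nfyc was at 168 and 165 TPM, Nfya at 45.4 and 55.1 TPM, and Nfyb at 5.08 and 1.90 TPM. Irf1, an activator of class I genes, was at 59.4 and 43.5 TPM. The interferon gamma gene Ifng had 0 counts in both libraries, while its receptor genes Ifngr1 (10.2 and 13.9 TPM) and Ifngr2 (45.3 and 28.6 TPM) were present.

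Transcript tables held 36 transcripts of the 10 genes, and 8 genes had more than 1. The leading transcript was the same in both libraries for all 10 genes. For H2-Eb1 and B2m, with 1 transcript each, this and a share of 100% were fixed in advance. For 6 of the 10 genes, H2-Eb1 and B2m among them, the leading share was above 97% in both libraries. These splits rest on the authors' estimate from reads that overlapping transcripts share. The 4 genes with a divided output were Cd74, H2-K1, H2-DMb1 and Tap1.

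Cd74 was divided between the short and the long form of the invariant chain. Cd74-201, with 8 exons, held 60.6% in replicate 1 and 65.3% in replicate 2, at 315 and 312 TPM. Cd74-202 held 39.4% and 34.7%, at 205 and 166 TPM. It differs by an added seventh exon of 192 nt (mm10 chromosome 18, 60811294 to 60811485), which keeps the reading frame with 64 codons and is known to encode a thyroglobulin-type domain. The short form was thus near the same level in both libraries and the long form was lower in replicate 2.

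H2-K1 was divided between H2-K1-201, at 73.1% and 68.5%, and H2-K1-205, at 23.8% and 29.7%. Both have 8 exons. The last exon of H2-K1-201 begins 27 nt earlier (chromosome 17, 33996477 to 33996503), inside the part that encodes the cytoplasmic tail. H2-D1, by contrast, gave 99.7% and 99.6% of its TPM to H2-D1-202.

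For H2-DMb1 the leading transcript was H2-DMb1-203, at 81.1% and 85.6% of TPM, which GENCODE M21 annotates as a processed transcript without a coding sequence. It is 692 nt long, against 1404 nt for the coding transcript H2-DMb1-201, and shares 3 introns with it. In expected counts its share was smaller, at 63.8% and 71.1%. The coding transcript alone was at 6.17 and 4.77 TPM. On these values the coding transcript of H2-DMb1 lay below H2-DMa, the reverse of the order of the genes.

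Tap1 was led by Tap1-206, at 50.8% of TPM in replicate 1 and 62.7% in replicate 2. Tap1-201, which lacks 84 nt (28 codons) inside the sixth exon of Tap1-206, held 25.2% and 19.6%. Transcripts with retained introns held 24.1% and 17.6%. The gene's equal TPM in both libraries therefore covered a shift among its transcripts, with Tap1-206 at 22.7 and 27.9 TPM.

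**Figure D4:**
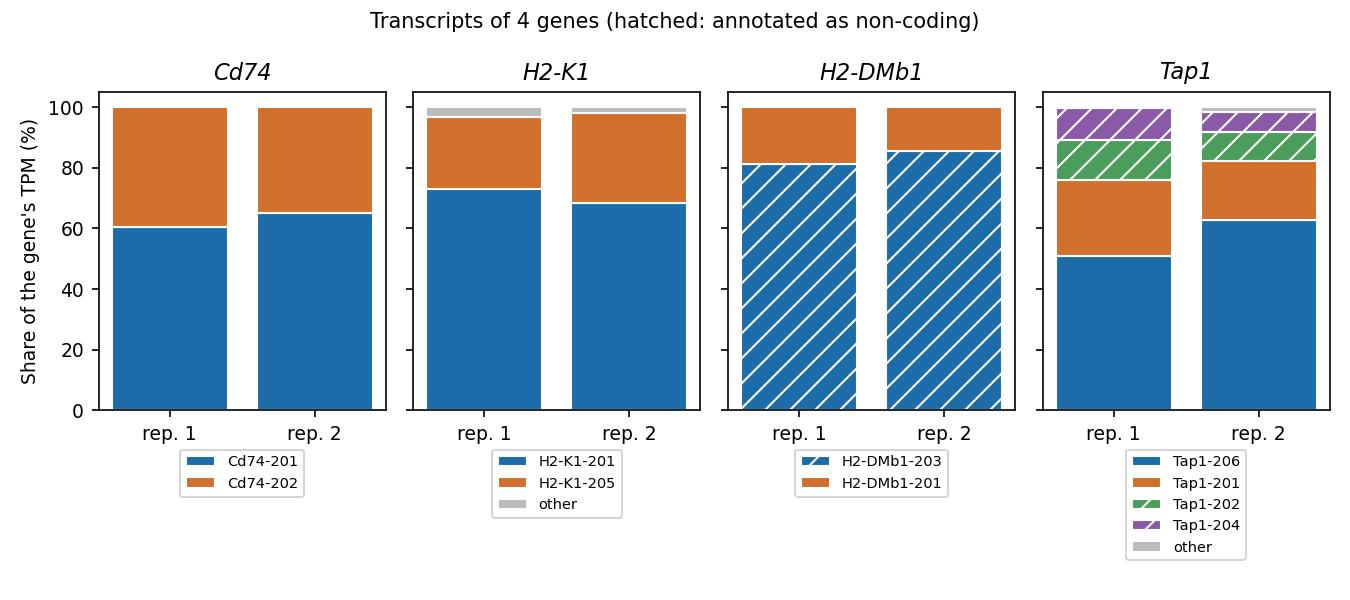
Share of each gene's TPM (%) by transcript in both replicates for the 4 genes with a divided output; hatched parts are transcripts annotated as non-coding, and transcripts under 5% are joined as other. H2-DMb1-203 holds 81.1% and 85.6%, and Cd74-202 holds 39.4% and 34.7%.

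The libraries were then compared gene by gene, to see how far the members differed between them. The comparison used an exact binomial test on scaled counts, called at least 2-fold and at a Benjamini-Hochberg adjusted p under 0.05. It compares the reads of 2 libraries and covers counting error only. No member was called (0 of 10), against 6.90% of the 15814 genes tested (4.34% higher in replicate 1 and 2.55% higher in replicate 2) and 1.96% of the 7352 tested genes with a mean of 10 TPM or more. By adjusted p without a minimum fold 8 of 10 passed, against 58.3% of all genes. The test passes smaller ratios where counts are higher, and the share among genes of the members' level was not computed for it. These counts are therefore not a measure of an excess among the members.

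The log2 ratio of replicate 1 over replicate 2 had a median of 0.16 over the 10 genes, from -0.55 to 0.54, and all genes tested had a median of -0.0045. The median size of the ratio was 0.18 for the members, 0.26 for all genes and 0.19 for genes with a mean of 10 TPM or more, so the members were near genes of similar level. The 6 that passed with the higher value in replicate 1 (all genes: 29.2%) were H2-Ab1, H2-D1, H2-Aa, H2-K1, Cd74 and H2-Eb1. B2m and H2-DMa were higher in replicate 2 (all genes: 29.0%). H2-DMb1 and Tap1 did not pass. With counts scaled to spike-in RNAs, the median ratio of all genes moved by -0.43, and all members but H2-Ab1 then lay below 0, so these directions hold relative to other genes.

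H2-Ab1 was 1.45-fold higher in replicate 1 (17151 and 13084 expected counts), with a log2 ratio of 0.54 and an exact 95% interval of 0.51 to 0.57 (adjusted p = 4.78e-227, exact binomial test). Its partner H2-Aa had 4884 and 4619 counts and a ratio of 0.23 (0.17 to 0.29). The intervals of these partners did not overlap. B2m had 12109 and 19623 counts and was 1.46-fold higher in replicate 2, with a ratio of -0.55 (-0.58 to -0.52). Those of H2-K1 (0.19, 0.17 to 0.21) and H2-D1 (0.26, 0.24 to 0.28) lay on the other side of 0. The central 90% of all tested genes ran from -0.76 to 0.96 and held both genes. Among tested genes with a mean of 10 TPM or more, the level range of every member, it ran from -0.50 to 0.60, and B2m lay outside it. When biological variation was set at a coefficient of 0.2 in edgeR's exact test, no member passed (adjusted p = 1 for each), against 1.52% of all genes.

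**Figure D5:**
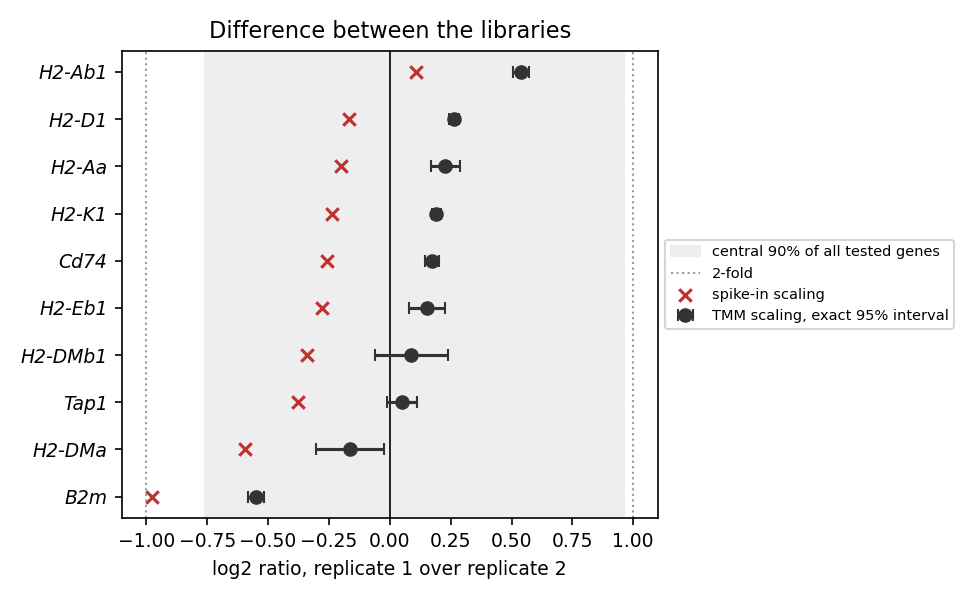
Log2 ratio of replicate 1 over replicate 2 for each gene, as points with exact 95% intervals under TMM scaling and as crosses without intervals under spike-in scaling; the grey band is the central 90% of all tested genes and dotted lines mark 2-fold. H2-Ab1 at 0.54 and B2m at -0.55 lie at the ends, and no point passes 2-fold; under spike-in scaling B2m reaches -0.98.

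By adjusted p, 29.2% of all genes tested were higher in replicate 1 and 29.0% in replicate 2. Of the 11 tested genes of the other class II list 2 were higher in replicate 1 and 4 in replicate 2, with a median log2 ratio of -0.13. Of the 16 loading genes 3 were higher in replicate 1 and 8 in replicate 2, with a median of -0.09. Psmb9 (0.32) and Psmb8 (-0.30), neighbours beside Tap1, lay on opposite sides. The 15 regulators had a median of -0.16, with 3 higher in replicate 1 and 9 in replicate 2. Ciita was at 0.36 and Nlrc5 at -0.39. Of the 20 tested class I-like and non-classical genes 7 were higher in replicate 1 and 3 in replicate 2, with a median of 0.055. The 6 tested genes of the interferon gamma receptor and signal list had a median of -0.00066, with 2 higher in each library. No gene on these lists was called at 2-fold, against 6.90% of all genes tested.

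Genes of the marker lists also differed between the libraries, and their part in the members' differences was not tested. By adjusted p 58.3% of all genes tested passed, 29.2% higher in replicate 1 and 29.0% in replicate 2. A list with a count near these shares is not set apart from other genes by it. The adipocyte list had a median log2 ratio of 0.92 with 7 of 7 genes higher in replicate 1 by adjusted p. The cortex list had a median of -0.46 with 6 of 6 higher in replicate 2. The macrophage list had a median of -0.05, with the 3 C1q genes higher in replicate 1 (0.12 to 0.26) and Cd68 higher in replicate 2 (-0.60). The dendritic cell list had a median of -0.38, and 2 of its 7 tested genes passed, both with the higher value in replicate 2. These were Clec9a (10 and 27 counts) and Ccr7 (31 and 57 counts), both with few reads. Flt3 and Xcr1, at 20 counts or fewer, also lay below 0 and did not pass. Zbtb46 (0.13), Batf3 (0.42) and Itgax (0.15), the markers at 1 TPM or more, lay above 0 and did not pass. The B cell list had a median of -0.42, and 2 of its 5 tested genes passed, again with the higher value in replicate 2. The pan-leukocyte list had a median of 0.29 (4 of 5 higher in replicate 1 and 1 in replicate 2), the endothelial list of 0.17 (4 of 6 higher in replicate 1), the medulla list of 0.15 (3 of 6 higher in replicate 1 and 1 in replicate 2), and the 2 tested T cell genes of 0.08 (0 passed). Xist was at 5.70 and 12.9 TPM. The Y-linked genes Kdm5d, Eif2s3y, Ddx3y and Uty had 221, 79, 32 and 26 counts in replicate 1 and 0 in replicate 2. The libraries thus differed in sex composition, and its effect cannot be told apart from other differences between them.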

How the data were processed

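Per the readme files deposited with the tables, the authors derived gene and transcript values from alignments to the mm10 transcriptome with the GENCODE M4 annotation, 1 library per table. Aligner and quantifier were not given in the sources used here. Per the file headers, the deposited expected counts are estimated read pairs per gene, fractional where reads were shared. TPM, as deposited, sums to the same total in each library, the deposited FPKM was used only as an alternative, and the deposited percent of a gene's TPM per transcript was recomputed from TPM. Deposited posterior means and TPM intervals (level not stated) describe the read assignment. 2 series tables in mm9 were not used here.

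Symbols, positions and transcript types came from GENCODE M21 on the same assembly (42462 of 43346 identifiers). For the library comparison, expected counts were rounded, genes whose counts summed to 20 or more were kept, and spike-ins were left out. TMM scaling came from edgeR 4.0.16 in R 4.3.3 and the two-sided exact binomial test from scipy 1.17.1, with a prior count of 0.5 for ratios and 95% Clopper-Pearson intervals. The test was checked on simulated counts drawn with counting error only, which cannot show how it behaves with variation between animals. Quasi-likelihood tests need replicates on each side and were not used. Intervals cover counting error only.

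The text names the 10 members, genes of 5 related lists, leading or lowest members of 9 marker lists, and next genes in level. Named outside that rule, after their values were seen, were Ptprc, the C1q genes, Cd68, Aif1, Cd163, Mrc1, Xist and the Y-linked genes. So were the dendritic, B and T cell markers that do not lead their lists. The spaced promoter pair, the shown NF-kappaB palindrome and the ratios with Tap2, Psmb or H2-DMb2 genes were also chosen after seeing the data. The members and lists were chosen with earlier results of these data known. Alternatives were posterior means, FPKM, DESeq2 1.42.0 size factors, spike-in scaling, other count filters, a prior count of 2, an assumed coefficient of variation, and 1 library at a time.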

Additional observations from a re-analysis of the deposited data

How the results depend on the processing

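Levels, ratios and transcript shares rest on 2 libraries, so their spread is poorly known, and no paired analysis was possible because there is 1 group. With spike-in scaling the median log2 ratio of the members turned from 0.16 to -0.27, and the ratios of Cd74 (-0.26), H2-Aa (-0.20), H2-Eb1 (-0.28), H2-DMb1 (-0.34), H2-K1 (-0.24), H2-D1 (-0.17) and Tap1 (-0.38) turned negative. The number of genes called was 687 higher in replicate 1 and 404 in replicate 2. It became 287 and 1301 with spike-in scaling, 328 and 134 with a summed count of at least 100, 133 and 108 under edgeR's exact test with a coefficient of variation of 0.2, and 4625 and 4591 by adjusted p alone. By adjusted p alone 8 members passed in place of 0. No other alternative called a member at 2-fold. As a share of expected counts the members held 0.305%. The library comparison cannot be made without either library. With 1 library left out, the members' share ran from 0.344% to 0.358%, the ratio of H2-Ab1 to H2-Aa from 2.64 to 3.25, and that of B2m to both heavy chains from 0.313 to 0.529. Posterior means moved the levels of H2-DMb1 (32.6 TPM) and Tap1 (44.4 TPM) by more than their narrow spread.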
